A study of Mus musculus with 16 samples.

Results

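The receptors for dopamine, serotonin and noradrenaline measured here were 10 genes, Drd1, Drd2, Htr1a, Htr1f, Htr2a, Htr2c, Adra1a, Adra1b, Adra2a and Adrb1, chosen by gene symbol from the 26625 genes of the table. They were read in the medial prefrontal cortex (mPFC) of 16 male C57BL/6 mice aged 8 to 10 weeks. All mice had received an AAV vector in both sides of the mPFC, which expressed EGFP from a CMV promoter and a short hairpin RNA from a U6 promoter, so that neither promoter limits expression to one cell type. The hairpin was directed against Kdm7a, a histone demethylase gene, in the Kdm7a-shRNA groups, and was a negative control in the Ctrl groups. Over 10 days of place conditioning the morphine groups received morphine at 10 mg/kg on alternating days and the saline groups received saline alone, and tissue was taken on day 7 of withdrawal. The control virus had been given to 7 mice, 3 in the Ctrl + Saline and 4 in the Ctrl + Morphine group, and the knockdown virus to 9, 5 in Kdm7a-shRNA + Saline and 4 in Kdm7a-shRNA + Morphine. Mice with the same number in different groups were different animals.

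Dopamine, serotonin and noradrenaline reach the prefrontal cortex in fibres from the midbrain, the raphe nuclei and the locus coeruleus. Their receptors are G protein-coupled receptors, which either raise cAMP through Gs (Drd1, Adrb1), lower it through Gi (Drd2, Htr1a, Htr1f, Adra2a) or activate phospholipase C through Gq (Htr2a, Htr2c, Adra1a, Adra1b). In this cortex they are known for their part in working memory, arousal and learned responses to reward, and Drd1 and Drd2 are far more abundant in the neighbouring striatum than in cortex.

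None of the 10 receptors passed the test in any comparison, and no receptor separated any of the compared groups. The receptors were read at low depth, with 2 to 146 reads per gene and mouse, and within a group several of them varied between mice by far more than counting error. The clearest structure lay among the mice. Drd1 and Drd2 varied together and with markers of striatal projection neurons. Htr1a, Htr2a and Adra1a also varied together, and Drd1 varied with Htr1a and Adra1a as well. Drd1 also varied with markers of deep cortical layers, though less than with the striatal markers. Whether these lists mark separate cells was not tested. Htr2a, Htr1a and Htr2c varied against microglia markers and also against astrocyte markers.

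The promoter windows of the receptors whose results are described most closely below are shown here. They are Drd1 and Drd2, the pair that varied most alike, Htr1a and Htr2a, which also varied alike, and Adra2a, the receptor with the smallest unadjusted p-values under morphine. Each window runs 5′ to 3′ on the gene's own strand, from 250 bases before to 50 bases after a start site annotated by RefSeq on GRCm38.p6. Capitals mark matches, on either strand, to 6 motifs: the TATA box (TATAAA), the GC box (GGGCGG), the cAMP response element (TGACGTCA), its core (TGACG, which also lies within the whole element), the E box (CACGTG) and the CCAAT box (CCAAT). Drd1 lies at chr13:54055609-54055908, minus strand. Drd2 lies at chr9:49340153-49340452, plus strand. Htr1a lies at chr13:105443443-105443742, plus strand. Htr2a lies at chr14:74640624-74640923, plus strand. Adra2a lies at chr19:54045009-54045308, plus strand.
Drd1: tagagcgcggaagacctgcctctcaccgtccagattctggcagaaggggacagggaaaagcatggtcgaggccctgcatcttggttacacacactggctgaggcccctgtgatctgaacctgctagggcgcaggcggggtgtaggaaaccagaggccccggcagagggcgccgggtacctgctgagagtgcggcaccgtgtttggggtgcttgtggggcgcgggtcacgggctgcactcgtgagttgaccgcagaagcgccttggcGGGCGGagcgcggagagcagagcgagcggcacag
Drd2: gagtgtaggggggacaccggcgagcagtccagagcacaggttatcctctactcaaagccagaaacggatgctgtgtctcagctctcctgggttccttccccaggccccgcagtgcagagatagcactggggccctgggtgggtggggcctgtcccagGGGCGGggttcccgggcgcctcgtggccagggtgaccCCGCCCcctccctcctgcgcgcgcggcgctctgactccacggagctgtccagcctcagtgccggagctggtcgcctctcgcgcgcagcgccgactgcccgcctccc
Htr1a: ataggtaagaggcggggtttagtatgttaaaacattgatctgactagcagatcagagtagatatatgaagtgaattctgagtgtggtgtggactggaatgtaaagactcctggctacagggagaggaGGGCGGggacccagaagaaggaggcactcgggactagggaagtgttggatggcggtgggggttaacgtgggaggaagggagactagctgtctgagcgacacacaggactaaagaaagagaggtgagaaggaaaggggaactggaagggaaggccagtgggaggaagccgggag
Htr2a: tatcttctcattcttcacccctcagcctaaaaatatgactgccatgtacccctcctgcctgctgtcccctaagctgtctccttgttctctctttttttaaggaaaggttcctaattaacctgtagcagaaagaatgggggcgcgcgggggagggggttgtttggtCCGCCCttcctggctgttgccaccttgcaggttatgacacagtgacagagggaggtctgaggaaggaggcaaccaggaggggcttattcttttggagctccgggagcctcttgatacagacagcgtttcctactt
Adra2a: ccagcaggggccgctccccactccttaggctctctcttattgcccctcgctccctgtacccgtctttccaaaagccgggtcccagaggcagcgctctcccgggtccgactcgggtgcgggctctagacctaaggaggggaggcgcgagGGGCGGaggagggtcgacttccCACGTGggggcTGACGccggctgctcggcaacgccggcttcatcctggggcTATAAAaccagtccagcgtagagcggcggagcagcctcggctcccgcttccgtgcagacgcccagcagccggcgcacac
RefSeq windows were found for 9 of the 10 receptors, 11 windows in all, as Drd1 and Adra1b had more than 1 window. A receptor was counted where any of its windows held the motif, whereas the shares of all windows are per window. A GC box was present in 8 of these 9 receptors and in 35.7% of all 32851 windows of that length, and only Htr2c had none in its window. A TATA box was found in 1 receptor, Adra2a, and in 13.6% of all windows, and an E box also in Adra2a alone and in 7.15% of all windows. The core of the cAMP response element was found in Adra2a and Adrb1 and in 20.8% of all windows. The CCAAT box was found in Htr2c, Adra1b and Adrb1, and in 37.4% of all windows. The whole cAMP response element, held by 1.79% of windows, was found in 0 receptors. The windows shown ranged in GC content from 52% in Htr2a to 70.3% in Drd2, with a median of 52.7% over all windows.

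Levels are given as normalized CPM, the reads of a gene per 1000000 reads of that mouse after TMM scaling, a correction for differences in library composition. Between 6596991 and 12418112 reads were counted per mouse, and the 10 receptors together took 231 to 451 of them. A floor of 3 counts corresponded to 0.258 to 0.460 normalized CPM, and 1 of the 160 receptor values lay under it, Drd2 in Kdm7a-shRNA + Saline mouse 1. These floors cover counting error only. Kdm7a itself was at 9.42 ± 0.353 normalized CPM (mean ± SD, n = 3) in Ctrl + Saline and 5.55 ± 0.571 (n = 5) in Kdm7a-shRNA + Saline, and at 7.72 ± 1.13 (n = 4) in Ctrl + Morphine and 4.94 ± 1.53 (n = 4) in Kdm7a-shRNA + Morphine. Knockdown gave a log2 fold change of -0.67 (adjusted p = 0.0506) under morphine and of -0.76 (adjusted p = 0.0153) under saline, by edgeR's quasi-likelihood test. Without Ctrl + Saline mouse 3 the latter was -0.79 (adjusted p = 0.0533), and in the average Kdm7a fell by 0.71 on the log2 scale (adjusted p = 0.00154). Markers of excitatory cortical neurons (Slc17a7, Tbr1, Neurod6 and Camk2a) summed to 679.9 to 1516 normalized CPM per mouse. In bulk tissue, fewer cells of a type and less RNA per cell cannot be told apart.

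**Figure D1:**
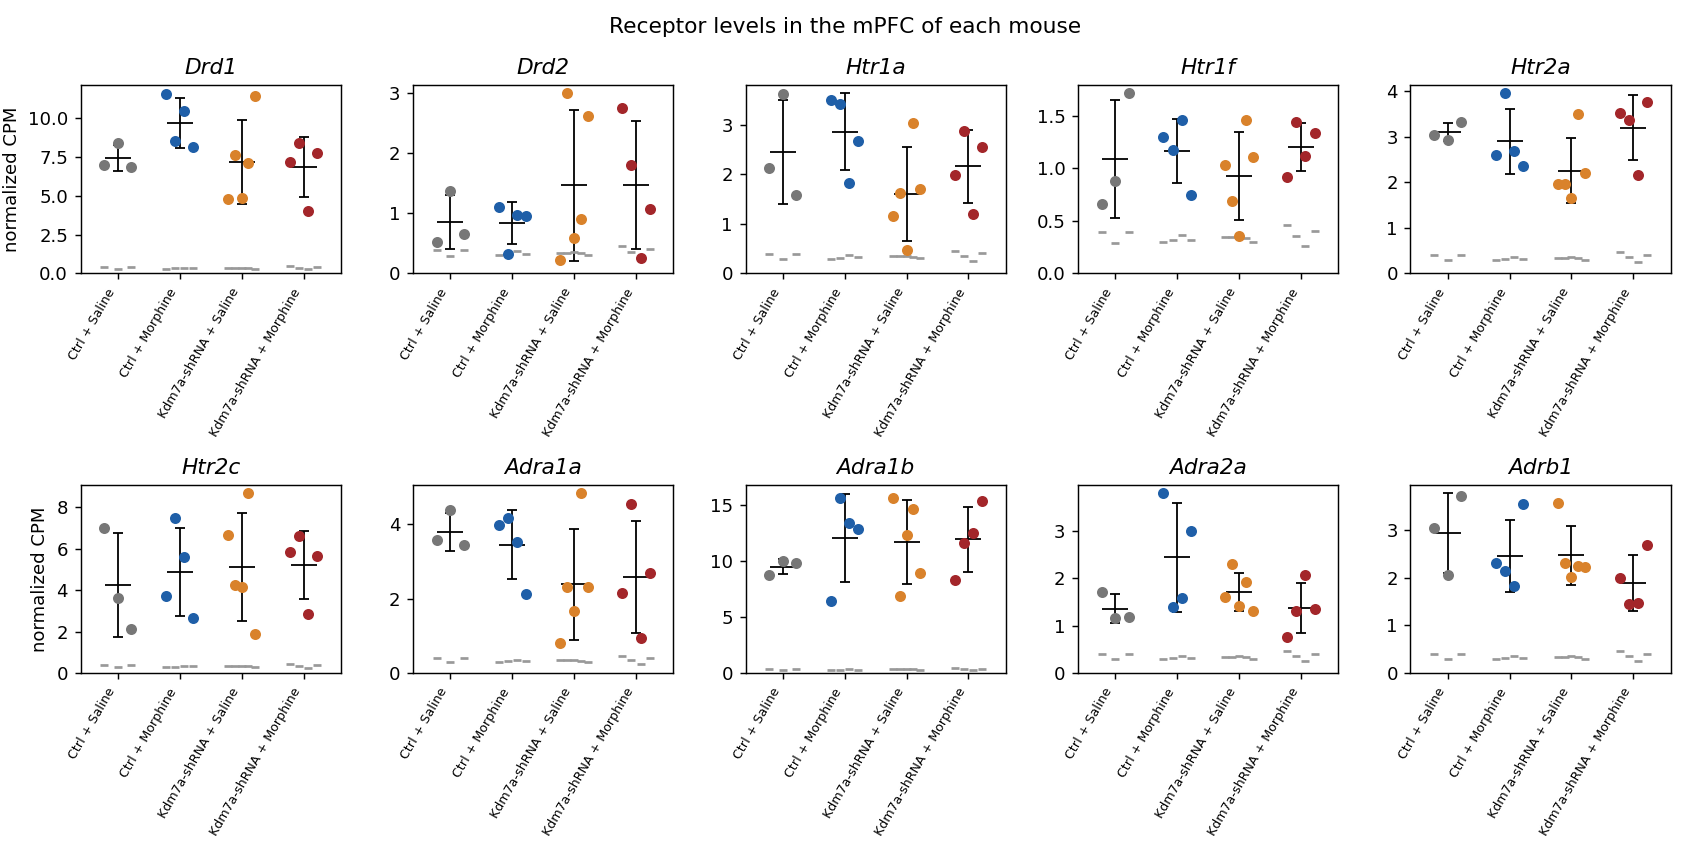
Normalized CPM (vertical axis, reads per 1000000 after TMM scaling, a separate range for each receptor) of the 10 receptors in the 16 mice, in 4 groups on the horizontal axis. Each point is 1 mouse, black marks show the mean ± SD, and grey dashes show each mouse's floor of 3 counts, with 1 value, for Drd2, below its floor. The groups overlap for every receptor.

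By reads, Adra1b was the most abundant receptor with a mean of 11.4 normalized CPM over the 16 mice, followed by Drd1 with 7.77 and Htr2c with 4.92. Drd2 (1.2) and Htr1f (1.09) were the least abundant, and had fewer than 10 counts in 10 and 7 of the 16 mice. Levels of different genes were set side by side per kilobase of annotated exons in GENCODE vM21, although a long read counts 1 cDNA molecule whatever its length. Per kilobase, the order was Adra1b (3.38 CPM per kb), Drd1 (2.14), Adrb1 (0.711), Htr2c (0.527), Htr2a (0.501), Htr1a (0.492), Drd2 (0.469), Htr1f (0.422), Adra2a (0.361) and Adra1a (0.340). On both scales Adra1b and Drd1 stood above the other 8 receptors, and the order below them changed with the scale.

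The test asked of every gene was an adjusted p-value under 0.05 with a fold change of at least 1.5. The first question was whether morphine withdrawal changed the receptors in control mice. Between Ctrl + Saline and Ctrl + Morphine, 0 of the 10 receptors passed in edgeR's quasi-likelihood test, where 0% of the 18826 tested genes passed. DESeq2's Wald test also called 0 receptors, and 1 receptor, Adra2a, had an unadjusted p under 0.05. The receptors' median log2 fold change was 0.16 and that of all tested genes -0.01. The groups did not overlap for 0 receptors and for 12.4% of all genes.

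Whether knockdown changed the receptors was asked under each treatment and over both. Under morphine 0 of 10 receptors passed, where 7.69% of all tested genes passed, and the groups did not overlap for 0 receptors and for 13.9% of genes. Under saline 0 of 10 passed, against 16.7% of all genes, with 0 receptors and 23.7% of genes not overlapping. Averaged over both treatments 0 of 10 passed, against 17.6% of all genes, and the 7 Ctrl and 9 Kdm7a-shRNA mice did not overlap for 0 receptors and 4.37% of genes. An unadjusted p under 0.05 was found for 1 receptor under morphine (Adra2a), 0 under saline and 0 in the average, and DESeq2 called 0 receptors in each of these comparisons.

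Many genes passed in the knockdown comparisons, so the receptors' low counts were considered. Among the 6164 known genes with mean counts within the receptors' range (9.56 to 101), 4.61% passed under morphine, 11.4% under saline and 14.6% in the average. With their standard errors, the receptors would have needed an estimated fold change of 1.81 (Htr2a and Drd1) to 4.81 (Drd2) to pass under morphine. In the average the estimate needed was 1.5 (Drd1, Htr2a, Adra1b and Adrb1) to 2.59 (Drd2).

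Morphine was also compared with saline in the knockdown mice, and the knockdown effects under the 2 treatments with each other. Between Kdm7a-shRNA + Saline and Kdm7a-shRNA + Morphine, 0 of 10 receptors passed, where 0.00531% of all genes passed, and 0 receptors and 1.94% of genes did not overlap. In the interaction of knockdown and treatment 0 of 10 passed, where 0.085% of all genes passed. DESeq2 called 0 receptors in both, and an unadjusted p under 0.05 was found for 0 receptors in the former and 1, Adra2a, in the interaction. These comparisons share mice, so their values are not independent of each other.

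**Figure D2:**
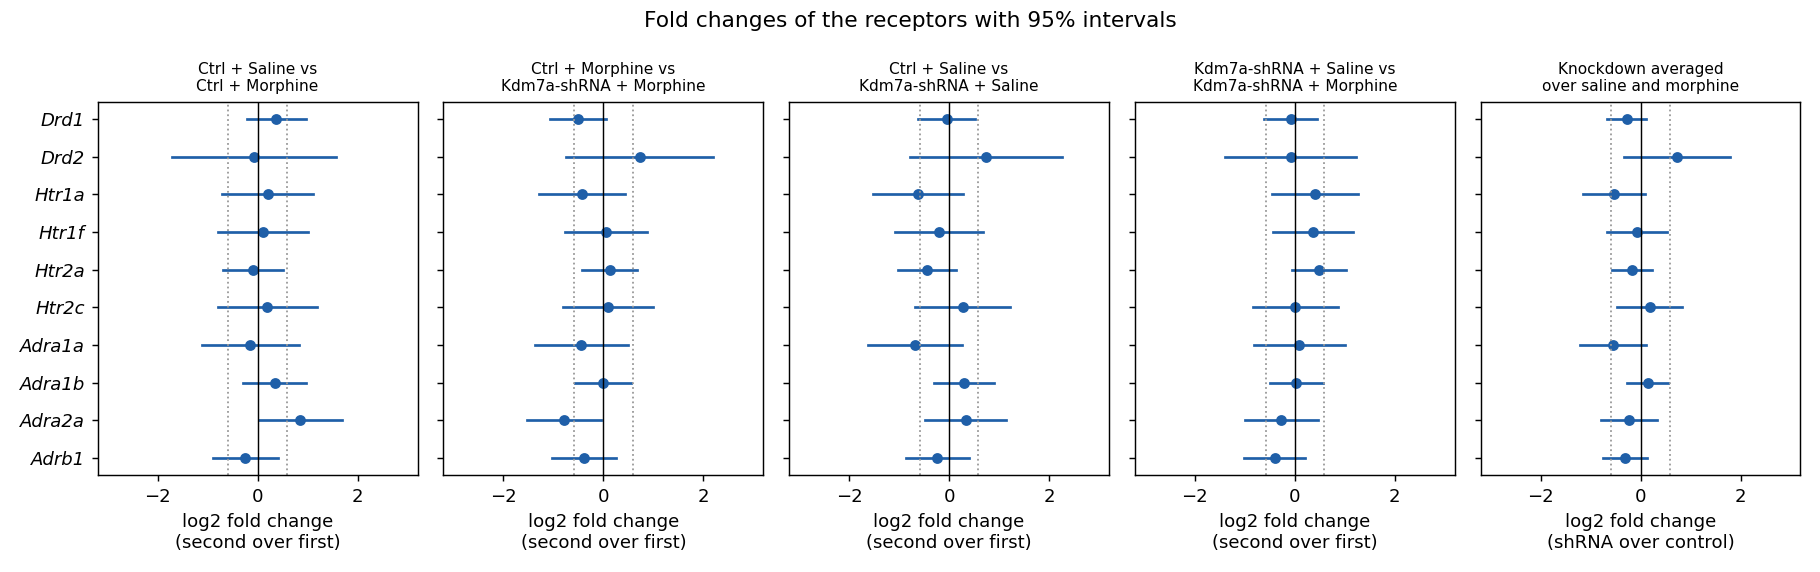
Log2 fold changes (horizontal axis) of the 10 receptors (vertical axis) in 5 comparisons, as points with 95% intervals derived from edgeR's quasi-likelihood test, with dotted lines at a 1.5-fold change either way. Intervals span 0 except for Adra2a in the first 2 comparisons, and Drd2 has the widest interval in each of the 5.

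Drd1, the Gs-coupled receptor of the direct striatal pathway that is also found in deep cortical neurons, was at 7.0, 8.39 and 6.89 normalized CPM in the Ctrl + Saline mice and at 11.6, 8.54, 10.5 and 8.13 in the Ctrl + Morphine mice. In the Kdm7a-shRNA + Saline mice it was at 4.83, 7.60, 4.86, 7.09 and 11.5, and in the Kdm7a-shRNA + Morphine mice at 7.2, 8.39, 4.04 and 7.78. The Ctrl + Morphine mean of 9.68 was the highest of the 4, but its lowest mouse overlapped with the highest Ctrl + Saline mouse. The log2 fold change between these groups was 0.38 (SE 0.28, adjusted p = 0.652), and that of knockdown under morphine was -0.51 (SE 0.26, adjusted p = 0.236). Averaged over treatments the log2 fold change was -0.28 with a 95% interval from -0.68 to 0.12.

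Drd2, the Gi-coupled receptor of the indirect striatal pathway, varied most between mice, 13-fold from the lowest to the highest. It was at 0.529, 1.37 and 0.662 normalized CPM in Ctrl + Saline, at 1.10, 0.320, 0.974 and 0.963 in Ctrl + Morphine, at 0.230, 3.0, 0.592, 0.90 and 2.61 in Kdm7a-shRNA + Saline, and at 2.76, 1.80, 0.258 and 1.07 in Kdm7a-shRNA + Morphine. The 4 values above those of all Ctrl mice were in Kdm7a-shRNA mice, as were the 2 lowest. The averaged log2 fold change of 0.73 (SE 0.50) did not pass (adjusted p = 0.300), and its interval from -0.32 to 1.79 was the widest of the receptors.

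Among the serotonin receptors, Htr1a, a Gi-coupled receptor of pyramidal neurons and interneurons that is also the autoreceptor of raphe neurons, was at 2.44 ± 1.05 (SD, n = 3) in Ctrl + Saline, 2.85 ± 0.777 (n = 4) in Ctrl + Morphine, 1.60 ± 0.942 (n = 5) in Kdm7a-shRNA + Saline and 2.16 ± 0.733 (n = 4) in Kdm7a-shRNA + Morphine. The Kdm7a-shRNA + Saline mice were at 1.15, 1.61, 0.474, 3.04 and 1.71, so that mouse 4 stood above the Ctrl + Saline median of 2.11. The averaged knockdown log2 fold change was -0.53 (SE 0.30, adjusted p = 0.201), and with 1 mouse left out it ran from -0.71 (without Kdm7a-shRNA + Saline mouse 4, adjusted p = 0.0636) to -0.31 (without Ctrl + Saline mouse 2).

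Htr2a, the Gq-coupled receptor at which serotonergic hallucinogens act, was at 3.04, 2.93 and 3.31 in Ctrl + Saline and at 1.95, 1.96, 1.66, 3.49 and 2.21 in Kdm7a-shRNA + Saline. All but mouse 4 of the knockdown group lay below the Ctrl + Saline mice, and the log2 fold change was -0.45 (SE 0.28, adjusted p = 0.263). In Ctrl + Morphine it was at 2.60, 3.95, 2.68 and 2.35 and in Kdm7a-shRNA + Morphine at 3.52, 3.36, 2.15 and 3.76, with a log2 fold change of 0.12 (SE 0.26, adjusted p = 0.812). The interaction, a log2 difference of 0.57 (SE 0.38), did not pass (adjusted p = 0.638). Htr2a varied little beyond counting error, with a chi-square of 1.52 per degree of freedom within groups, where 1 is expected from counting alone.

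Htr2c, a Gq-coupled receptor whose transcript is edited, had the largest chi-square, 9.60 per degree of freedom. This measure grows with a gene's counts. As a coefficient of variation between mice beyond counting error, Htr2c was at 45.0%, below Drd2 at 67.2%. It ranged from 2.12 to 7.0 normalized CPM in Ctrl + Saline, 2.67 to 7.47 in Ctrl + Morphine, 1.91 to 8.66 in Kdm7a-shRNA + Saline and 2.84 to 6.59 in Kdm7a-shRNA + Morphine. Each range spanned most of the others, and the averaged log2 fold change was 0.18 (95% interval -0.47 to 0.84). Htr1f, a Gi-coupled receptor and a target of drugs against migraine, was at 0.930 to 1.2 in the group means, and its chi-square of 1.19 was the smallest of the 10. Its averaged log2 fold change was -0.08 (95% interval -0.68 to 0.53). Annotated microRNA and small nucleolar RNA genes lie within Htr2c on the same strand.

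The adrenergic receptors included the most abundant receptor and the one with the smallest unadjusted p-values. Adra1b, a Gq-coupled receptor, was at 9.49 ± 0.671 (SD, n = 3) in Ctrl + Saline, 12 ± 3.95 (n = 4) in Ctrl + Morphine, 11.7 ± 3.70 (n = 5) in Kdm7a-shRNA + Saline and 11.9 ± 2.89 (n = 4) in Kdm7a-shRNA + Morphine. The Ctrl + Saline mice were close together at 8.72, 9.95 and 9.80, whereas the Ctrl + Morphine mice spread from 6.39 to 15.6. The averaged knockdown log2 fold change was 0.14, with an interval from -0.27 to 0.56.

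Adra1a, the other Gq-coupled adrenergic receptor of the 10, was at 3.57, 4.39 and 3.44 in Ctrl + Saline and at 3.99, 4.16, 3.53 and 2.14 in Ctrl + Morphine. It was at 0.804, 2.30, 1.66, 4.84 and 2.31 in Kdm7a-shRNA + Saline and at 2.15, 4.56, 0.945 and 2.68 in Kdm7a-shRNA + Morphine. In each Kdm7a-shRNA group 1 mouse stood above every Ctrl mouse, and the other 7 lay below every Ctrl mouse except mouse 4 of Ctrl + Morphine. The averaged log2 fold change was -0.56 (SE 0.31, adjusted p = 0.201). Without Kdm7a-shRNA + Saline mouse 4 it was -0.77, with an adjusted p of 0.050 that did not fall below the threshold, the smallest adjusted p of any receptor in any alternative.

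Adra2a, the Gi-coupled receptor on which guanfacine and clonidine act, was at 1.72, 1.17 and 1.19 in Ctrl + Saline and at 3.79, 1.39, 1.58 and 3.0 in Ctrl + Morphine. It was at 1.61, 2.30, 1.42, 1.91 and 1.31 in Kdm7a-shRNA + Saline and at 0.766, 1.32, 2.06 and 1.34 in Kdm7a-shRNA + Morphine. Mice 1 and 4 of the Ctrl + Morphine group were above all other mice, whereas the other 2 mice of that group lay among them. The log2 fold change between Ctrl + Saline and Ctrl + Morphine was 0.85 (SE 0.39, unadjusted p = 0.0432, adjusted p = 0.400), that of knockdown under morphine was -0.79 (SE 0.36, unadjusted p = 0.0402, adjusted p = 0.173), and the interaction was -1.12 (SE 0.53, unadjusted p = 0.0474, adjusted p = 0.457). The same Ctrl + Morphine mice enter all 3 values. Without mouse 1 of that group they were 0.56, -0.49 and -0.82.

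Adrb1, the Gs-coupled beta receptor, was at 2.93 ± 0.835 (SD, n = 3) in Ctrl + Saline, 2.45 ± 0.748 (n = 4) in Ctrl + Morphine, 2.47 ± 0.621 (n = 5) in Kdm7a-shRNA + Saline and 1.89 ± 0.585 (n = 4) in Kdm7a-shRNA + Morphine. The averaged knockdown log2 fold change was -0.31 (95% interval -0.76 to 0.13, adjusted p = 0.296). In that average the 95% intervals of 7 receptors, Drd1, Htr1f, Htr2a, Htr2c, Adra1b, Adra2a and Adrb1, lay within a 2-fold change either way. Those of Drd2, Htr1a and Adra1a reached beyond it, so a change of that size lay within their intervals. An estimate of 2-fold would have passed for Htr1a and Adra1a, which needed 1.75-fold and 1.81-fold, but not for Drd2, which needed 2.59-fold. A true 2-fold change can give a smaller estimate, so it could have been missed for these receptors too.

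The variation of the receptors within groups was compared next, as each mouse's deviation from its group mean in log2 CPM. These correlations over the 16 mice are descriptions, and the 2 values of a pair come from the same library. Of the 45 pairs of receptors, Drd1 and Drd2 were most alike (Pearson's r 0.82, Spearman's rho 0.80, and r 0.74 without the 2 mice farthest from the median of Drd1). Htr2a with Adra1a (r 0.73, rho 0.73), Htr1a with Adra1a (r 0.69, rho 0.87) Drd1 with Adra1a (r 0.69, rho 0.70), Htr1a with Htr2a (r 0.68, rho 0.63) and Drd1 with Htr1a (r 0.61, rho 0.64) followed in this order. Without the 2 farthest mice these were 0.63, 0.68, 0.71, 0.45 and 0.61. Drd1 with Htr2a was lower (r 0.42, rho 0.43, and 0.31). Drd2 and Adra1b were least alike (r -0.66, rho -0.66, and -0.68 without the 2 farthest).

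**Figure D3:**
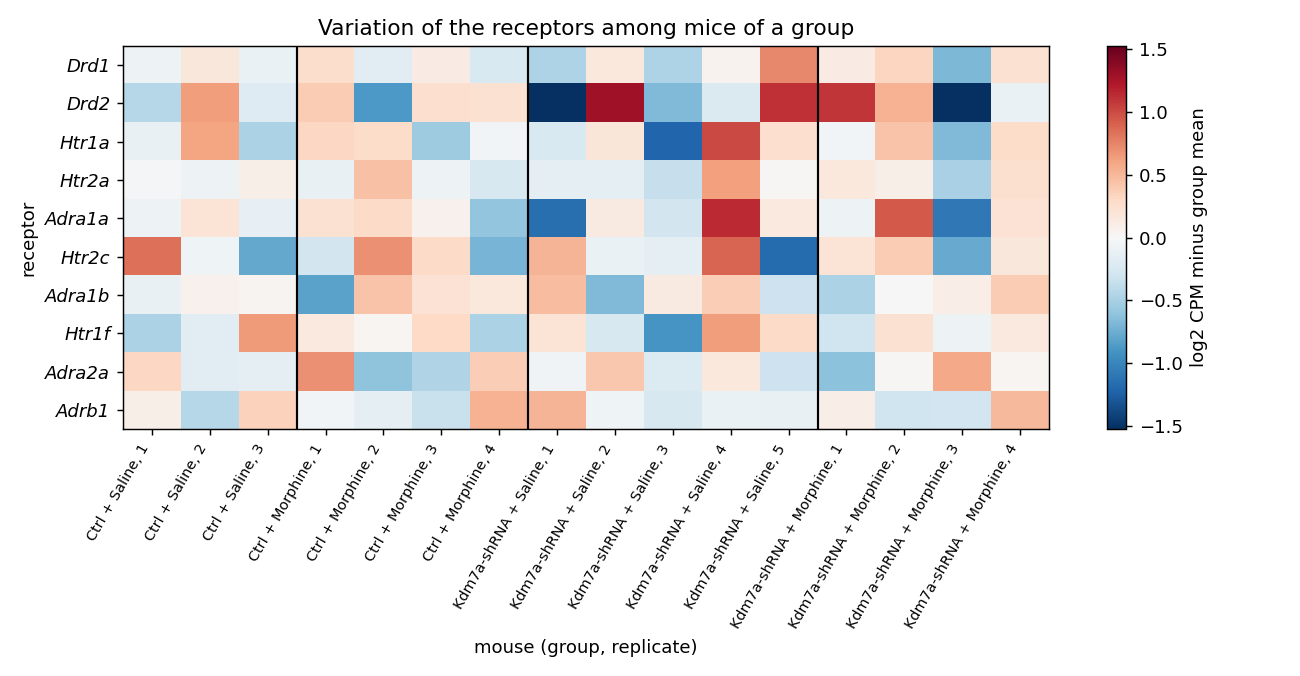
Deviation of each receptor (rows) from its group mean in log2 CPM (colour scale, red above and blue below) in the 16 mice (columns, with lines between groups). Drd1 and Drd2 are both low in Kdm7a-shRNA + Saline mouse 1 and Kdm7a-shRNA + Morphine mouse 3, and Htr1a, Htr2a and Adra1a are high together in Kdm7a-shRNA + Saline mouse 4.

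Drd1 and Drd2 were set beside 8 markers of striatal projection neurons, among them Adora2a, the adenosine receptor of the indirect pathway. The sum of the 8 ranged from 36.2 to 44.5 normalized CPM in Ctrl + Saline, 28.2 to 48.2 in Ctrl + Morphine, 28.4 to 66.1 in Kdm7a-shRNA + Saline and 24.2 to 46.4 in Kdm7a-shRNA + Morphine. Within groups, Drd2 varied with this sum (r 0.95, rho 0.94, and 0.94 without the 2 farthest mice), as did Drd1 (r 0.84, rho 0.79, and 0.87). Adra1a (r 0.52, rho 0.42, and 0.43) and Htr1a (r 0.47, rho 0.41, and 0.48) varied with the sum less closely. Adra1b varied in the opposite direction (r -0.71, rho -0.74, and -0.59). The r of the remaining receptors ran from -0.21 (Adrb1) to 0.13 (Htr1f).

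The Kdm7a-shRNA + Saline mice 2 and 5, with the highest sums of 66.1 and 61.1, had 3.0 and 2.61 of Drd2 and 12.4 and 10.7 of Adora2a. Adora2a was between 1.07 and 4.69 in all Ctrl mice. Of the 8 markers 6 were tested and 0 passed in any comparison, and the part of striatal tissue in the values of Drd1 and Drd2 was not tested.

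Htr1a, Htr2a and Adra1a were set beside markers of glia. Of 5 microglia markers (Cx3cr1, P2ry12, Tmem119, Csf1r and Aif1), 4 rose with knockdown in the average, and 3 of 5 astrocyte markers did so, where 17.6% of all genes passed in either direction. The microglia sum ranged from 239 to 400 normalized CPM in the Ctrl mice, and from 332 to 1204 in the Kdm7a-shRNA mice. It was 1165 and 1204 in Kdm7a-shRNA + Saline mouse 3 and Kdm7a-shRNA + Morphine mouse 3, where Htr1a was 0.474 and 1.2, the lowest of each group. The next highest sums, 993 and 833, were those of Kdm7a-shRNA + Saline mice 5 and 2, and there Htr1a and Adra1a were above their group means, with log2 deviations of 0.26 and 0.18 for Htr1a and 0.15 and 0.14 for Adra1a. The lowest Adra1a of all mice, 0.804, was in Kdm7a-shRNA + Saline mouse 1, with a microglia sum of 592. Within groups Htr2a (r -0.80, rho -0.69, and -0.74 without the 2 farthest mice), Htr1a (r -0.64, rho -0.54, and -0.63) and Htr2c (r -0.61, rho -0.59, and -0.62) varied against the microglia sum, and Adra1a less so (r -0.51, rho -0.46, and -0.32). The r values of Htr1f, Adra1b, Adrb1 and Drd1 were also negative (-0.43, -0.42, -0.37 and -0.30), that of Drd2 was -0.067 and that of Adra2a 0.28. With the astrocyte sum, Htr2c had the most negative r and rho (r -0.74, rho -0.79, and -0.68). Htr2a (r -0.71, rho -0.57, and -0.76) and Htr1a (r -0.60, rho -0.49, and -0.64) varied against it as well. There the r of Drd2 and Adra2a were positive (0.078 and 0.30).

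Of 4 excitatory cortical neuron markers 0 passed in any comparison, with a median averaged log2 fold change of -0.39, and the deep layer list of 7 had 1 lower, Bcl11b. Whether the deep layer list, which also includes Foxp2, marks cortical cells alone was not tested. Within groups Adra1a varied with the deep layer sum (r 0.80, rho 0.64, and 0.61 without the 2 farthest mice). So did Htr2a (r 0.70, rho 0.67, and 0.35), Htr1a (r 0.67, rho 0.53, and 0.44) and Drd1 (r 0.56, rho 0.58, and 0.53). The r of Adra2a and Adrb1 were slightly negative (-0.056 and -0.069). With the excitatory neuron sum, Adra1b had the highest value (r 0.71, rho 0.80, and 0.68). There the r of Drd1, Drd2 and Adra2a were negative (-0.057, -0.29 and -0.23). Of 6 GABA interneuron markers, 3 fell (Sst, Vip and Gad2) and 2 rose (Pvalb and Slc32a1) with knockdown in the average. Their sum was 488 to 549 normalized CPM in the Ctrl mice and 329 to 481 in the Kdm7a-shRNA mice, without overlap. Of all single genes, 4.37% did not overlap between these mice. Of 6 upper layer markers 1 rose (Cux1) and 1 fell (Lamp5), and 2 of 5 endothelial markers rose (Pecam1 and Cldn5). Of 3 choroid plexus markers tested 1 rose (Folr1), of 3 monoamine neuron markers tested 1 fell (Slc18a2), and of 5 oligodendrocyte markers 0 passed. In the average 17.6% of all tested genes passed in either direction, so counts of 1 or 2 in such short lists were not read as a result. The part of these cell types in the receptors' values was not tested.

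**Figure D4:**
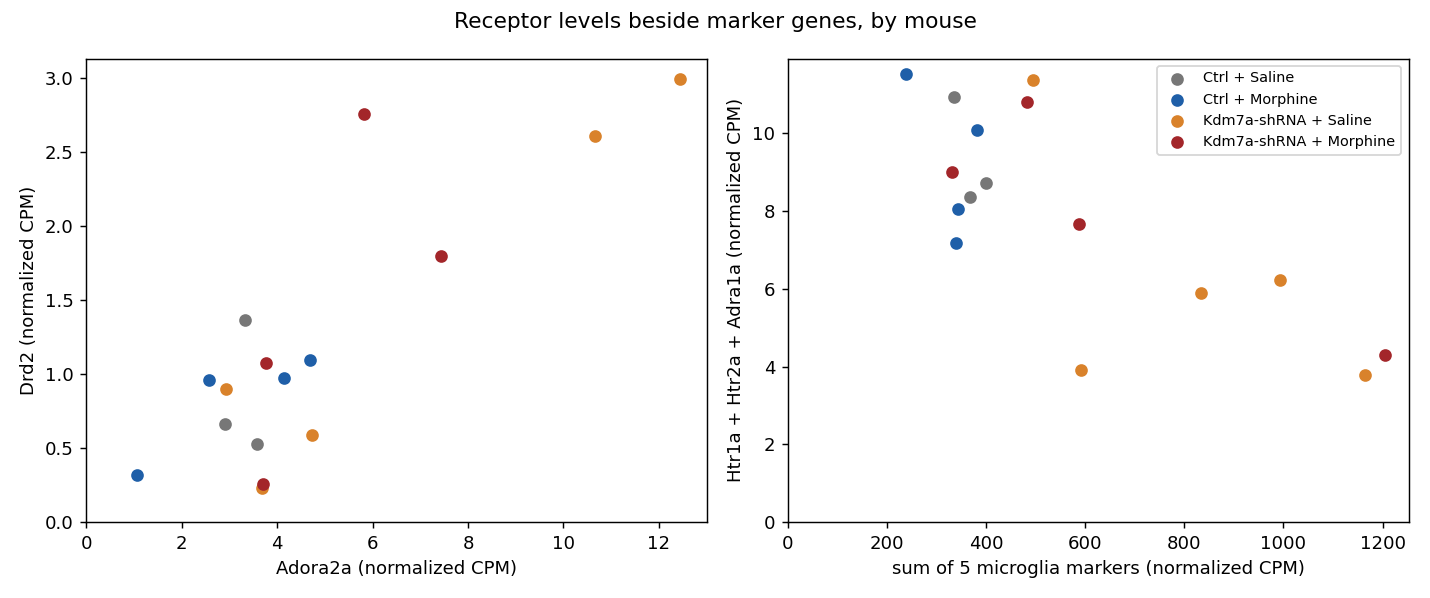
Left, Drd2 against Adora2a, both in normalized CPM, in the 16 mice coloured by group. Right, the sum of Htr1a, Htr2a and Adra1a against the sum of 5 microglia markers, both in normalized CPM. Mice with microglia sums of 1165 and 1204 lie at the lower right, and the 7 Ctrl mice, at 239 to 400, lie at the upper left. Kdm7a-shRNA + Saline mouse 1, with a microglia sum of 592, also lies low, and mouse 4 of that group, at 494, lies high.

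For the 4 receptors with the most reads, the genes whose deviations were most alike were found among known genes with a mean count of at least 20. Each receptor was compared with 12093 such genes over 16 mice. The 3 highest r of so many are high by selection alone, so no link was inferred from them. These were Gng7, Arrdc3 and Tmem116 for Drd1 (r 0.90, 0.87 and 0.85), of which Gng7 encodes a G protein gamma subunit that is abundant in striatum. They were Gm10358, Gm3839 and Atp5o for Adra1b (r 0.89, 0.87 and 0.87), Trim23, Babam1 and Elp5 for Htr2c (r 0.89, 0.88 and 0.88), and Lmo7, Scn3a and Zfp322a for Adra1a (r 0.91, 0.87 and 0.87). Scn3a encodes a voltage-gated sodium channel. By rank correlation 2 of the 3 genes remained for Adra1b, Drd1 and Htr2c and 1 for Adra1a.

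Of 18 other receptors for these transmitters, 17 were in the table and 8 had enough reads to be tested, and 0 of the 8 passed in any comparison. The most read of these were Adra1d, a Gq-coupled adrenergic receptor, with an averaged knockdown log2 fold change of -0.50 (SE 0.25, adjusted p = 0.151), and Htr3a, the serotonin-gated ion channel subunit, with -0.22 (SE 0.19, adjusted p = 0.425). Htr3a was at 3.28 ± 0.665 (SD, n = 3) in Ctrl + Saline and 5.22 ± 0.898 (n = 4) in Ctrl + Morphine, a log2 fold change of 0.66 (SE 0.29, adjusted p = 0.369).

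Of 15 genes for the synthesis, transport and breakdown of these transmitters, 6 were tested, and 2 fell with knockdown in the average while 0 rose, where 17.6% of all genes passed. Slc29a4, a low-affinity monoamine transporter, was at 1.66 ± 0.738 normalized CPM (SD, n = 4) in Ctrl + Morphine and 0.163 ± 0.118 (n = 4) in Kdm7a-shRNA + Morphine, where its counts were 0 to 3. The fit gave a log2 fold change of -3.16 (adjusted p = 0.00412) for knockdown under morphine and of -2.14 in the average (adjusted p = 5.6e-04). Slc18a2, the vesicular monoamine transporter of nerve terminals, had an averaged log2 fold change of -1.03 (SE 0.35, adjusted p = 0.0364), and lost its call in 9 of the 16 fits that left out 1 mouse, with an adjusted p of up to 0.151 (without Ctrl + Saline mouse 3). The other 8 of these fits left out mouse 2 of Ctrl + Saline, mouse 1, 3 or 4 of Ctrl + Morphine, mouse 1 or 2 of Kdm7a-shRNA + Saline, and mouse 2 or 3 of Kdm7a-shRNA + Morphine. The most read genes, Ddc, which makes dopamine and serotonin, and Maob, a monoamine oxidase, had averaged log2 fold changes of -0.11 (SE 0.18, adjusted p = 0.681) and -0.33 (SE 0.10, adjusted p = 0.0238), and neither reached a 1.5-fold change.

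All 28 signalling partners of the receptors were tested. Gnaq, the alpha subunit of Gq, rose with knockdown under morphine (log2 fold change 0.92, adjusted p = 0.0174), and missed the threshold without Ctrl + Morphine mouse 1 (adjusted p = 0.0515) or 4 (0.0672) or Kdm7a-shRNA + Morphine mouse 1 (0.0535). Gnai2, a Gi alpha subunit, rose under saline (0.76, adjusted p = 0.0200) and in the average (0.64, adjusted p = 0.00402). Arrb2, beta-arrestin 2, which ends receptor signalling, also rose under saline (1.05, adjusted p = 0.00784) and in the average (0.62, adjusted p = 0.0109). Without Ctrl + Saline mouse 3 the value of Gnai2 under saline was 0.49 (adjusted p = 0.133). In the average both genes kept an adjusted p under 0.05 with each mouse left out and with library size only, known genes only or the block. Their change was below 1.5-fold with library size only (0.52 for Gnai2 and 0.50 for Arrb2) and with known genes only (0.58 and 0.56), for Arrb2 with the block (0.58), for Gnai2 without Ctrl + Saline mouse 3 (0.51) or Kdm7a-shRNA + Morphine mouse 3 (0.56), and for Arrb2 in 6 of the 16 fits that left out a mouse (0.54 to 0.58), namely Ctrl + Saline mouse 1, Ctrl + Morphine mouse 2, mouse 2 or 5 of Kdm7a-shRNA + Saline and mouse 2 or 3 of Kdm7a-shRNA + Morphine. Thus 1, 2 and 2 of 28 passed under morphine, under saline and in the average, where 7.69%, 16.7% and 17.6% of all genes passed. Among known genes with counts in the receptors' range, which several partners exceeded, the shares were 4.61%, 11.4% and 14.6%. With only 28 partners, no difference from these shares was inferred. Of the partners 0 were lower, with medians of -0.12, 0.06 and -0.03. The most read partners were Gnas, the Gs alpha subunit (averaged log2 fold change 0.21, adjusted p = 0.0680), and Caly, first described as a partner of the dopamine receptor Drd1 (-0.16, adjusted p = 0.300). Between the saline and morphine groups of either virus 0 of the 28 passed. The microglia and astrocyte markers given above moved with these comparisons too, and their part in the values of Gnai2 and Arrb2 was not tested.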

How the data were processed

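RNA from the mPFC of 16 mice was sequenced as full-length cDNA on the Nanopore platform. The deposited counts are the reads the authors assigned to each gene of mm10, without normalization, after removing low-quality, short and ribosomal reads and aligning with minimap2. The CPM values deposited by the authors are those counts per 1000000 of the column total, and were used only to check the counts. Depth was 6596991 to 12418112 reads per mouse. The submitters' notes name edgeR 3.8.6.

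The counts were fitted with edgeR 4.0.16 in R 4.3.3 (filterByExpr, TMM factors, quasi-likelihood test, 1 coefficient per group, all 16 mice) over 18826 genes, with Benjamini-Hochberg adjustment over all of them. To pass, a gene needed a fold change of 1.5 or more and an adjusted p-value below 0.05. All 10 receptors passed the filter. The analysis was also run on simulated data, and no statement here rests on the outcome. DESeq2 1.42.0, other scalings, filters and sample sets, the replicate number as a block and each mouse left out were alternatives. Deviations used log2 CPM with a prior count of 2. Nothing says whether mice of a group, or mice with the same number, shared a litter or batch. Same-numbered mice had r above 0.1 in every pair between Ctrl + Saline and Ctrl + Morphine only. Mice with different numbers were not compared in this way.

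The receptors and gene lists were chosen with earlier results of these data known. Named genes were all 10 receptors, Kdm7a, those of 3 related lists that passed or were the 2 most read of a list, and for the 4 most read receptors the 3 known genes most alike in deviations. Of the listed genes, 2 are not reported here and were left out of the lists' counts and sums. Gene models are from GENCODE vM21 (GRCm38) and promoter windows from RefSeq (GRCm38.p6).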

Additional observations from a re-analysis of the deposited data

Results flagged for a closer look

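Adrb1 in Kdm7a-shRNA + Saline mouse 1 stood apart from the other 4 mice of its group, at 3.56 normalized CPM where the next highest mouse was at 2.30. The gap was 0.813 of the group's range, above Dixon's critical value of 0.710 for 5 mice. Of 30 groups of receptor values tested this way 1 stood out, and chance flags about 1 in 20.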

How the results depend on the processing

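The precision of these values is limited by the receptors' low counts and by 3 to 5 mice per group. Under all alternatives, including each mouse left out in turn, 0 receptors passed in each of the 6 comparisons, with 10 tested except for 9 in fits of the compared groups alone and 5 with at least 10 counts in every mouse; the test of receptors under the filter had no member. The smallest adjusted p over all of them was 0.050, for Adra1a in the averaged knockdown without Kdm7a-shRNA + Saline mouse 4. Scaling by library size only shifted the median over all genes, on the log2 scale, by -0.11, -0.13 and -0.12 in the knockdown comparisons under morphine, under saline and in the average. The count over all genes differed more: for Ctrl + Saline against Ctrl + Morphine it was 0, and 190 with DESeq2. For knockdown under morphine it was 1448, and 697 with at least 10 counts in every mouse, 424 with known genes only and 685 with the compared groups alone. Under saline it was 3151, and 1852 and 1378 with the first 2 of these. In the average it was 3316, and 1525 and 1409 with the same 2 and 5190 by the adjusted p alone. In the knockdown mice it was 1, and 26 with DESeq2, 2 with at least 10 counts and with known genes only, and 0 with the compared groups alone and with the block. For the interaction it was 16, and 34 with no filter, 227 with DESeq2 and 6 with the block.

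Of the 60 log2 fold changes of the receptors, 51 kept their sign under every alternative that kept all mice and 9 did not, all of them at most 0.089 in size. Knockdown under morphine gave -0.058 for Htr1f and -0.0064 for Htr2c with library size only, and 0.0047 (RLE size factors) and 0.0027 (DESeq2) for Adra1b. For the interaction Drd2 gave 0.0081 with RLE size factors, 0.019 with library size only, 0.0076 with no filter, 0.033 with DESeq2 and 0.028 with known genes only. The causes were not tested.

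The replicate number as a block changed no call of a receptor. Over 21 pairs of mice with the same number, their deviations correlated with r from -0.10 to 0.39 (median 0.014, above 0.1 in 6 pairs). All 3 pairs of Ctrl + Saline with Ctrl + Morphine were above 0.1 (0.11 to 0.21), and in the other comparisons at least 1 pair was below it. The 2 highest values, 0.39 and 0.36, were those of mice 3 and 4 of the 2 Kdm7a-shRNA groups. The numbers may pair mice, but mice with different numbers were not compared in this way, so pairing was not tested. Between Ctrl + Saline and Ctrl + Morphine 0 genes passed with the block, as without it. With the block, the log2 fold change of Drd2 was 0.12 between Ctrl + Saline and Ctrl + Morphine and 0.17 for the interaction, and between the 2 Kdm7a-shRNA groups those of Drd1, Drd2, Htr2c and Adra1b were 0.15, 0.30, -0.22 and -0.082, opposite in sign to the values without it.

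With 1 mouse left out, 23 of the 60 changed sign at least once. Between Ctrl + Saline and Ctrl + Morphine the ranges were Adra1a -0.24 to 0.030, Drd2 -0.34 to 0.49, Htr1a -0.036 to 0.63, Htr1f -0.16 to 0.56 and Htr2c -0.13 to 0.70. For knockdown under morphine they were Adra1b -0.22 to 0.14, Htr1f -0.12 to 0.16 and Htr2c -0.11 to 0.38, and under saline Drd1 -0.29 to 0.062, Htr1f -0.48 to 0.24 and Htr2c -0.055 to 0.78. Between the Kdm7a-shRNA groups they were Adra1a -0.36 to 0.51, Adra1b -0.11 to 0.17, Drd1 -0.20 to 0.15, Drd2 -0.56 to 0.34 and Htr2c -0.20 to 0.29. In the average Htr1f ran from -0.21 to 0.15. For the interaction they were Adra1a -0.22 to 0.65, Adrb1 -0.37 to 0.073, Drd2 -0.57 to 0.40, Htr1a -0.23 to 0.55, Htr1f -0.18 to 0.54 and Htr2c -0.67 to 0.16.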
